A study of Drosophila sechellia with 6 samples.

Results

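*Est-6* and *Est-P* are a pair of esterase genes that lie side by side on scaffold 0 of the *Drosophila sechellia* genome, and both were found by their names in the deposited expression table, as 2 of its 17273 genes. RNA of whole adult females of strain 14021-0428.25 was sequenced after 24 h on one of 2 diets. The noni diet was instant *Drosophila* food into which 1 g of pulp of rotten *Morinda citrifolia* fruit (noni) had been mixed, and the control diet was the same food without the fruit. All flies were young adults reared on cornmeal medium at 20 °C before the exposure, and there were 3 libraries per diet, each from pooled flies. The table gives each gene 1 FPKM value per diet (mapped fragments scaled for transcript length and library size), pooled by the authors over the 3 libraries. Single libraries are not listed, so no SD, interval or test is given below, and whether a difference exceeds the spread between libraries cannot be read from these values. Every difference below is therefore a description of 2 pooled values.

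Carboxylesterases split ester bonds, and insects use them in digestion, in detoxification of plant compounds, in breaking down hormones and in clearing odorants. In *D. melanogaster*, *Est-6* encodes esterase 6, a secreted enzyme known from the male ejaculatory duct, from which it is passed to the female at mating, and also present in the haemolymph and the antenna. *Est-P* is its tandem duplicate and encodes a related enzyme. Volatile fatty acids and their esters give ripe noni its smell, and microbes in rotting fruit, as fed here, lower the volatile fatty acids.

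*Est-6* was the abundant gene of the pair. It was listed at 85.3 FPKM on noni and 52.3 FPKM on control food, which is 1.63 times the control value and a log2 ratio of 0.71. *Est-P* was listed at 0.223 FPKM on noni and 0.300 FPKM on control food, 0.743 times the control value, with a log2 ratio of -0.43. *Est-6* was thus higher on noni. The value of *Est-P*, under 1 FPKM in both diets, was slightly lower, a difference too small at this level to give a direction. The difference between the diets was 33.0 FPKM for *Est-6* and -0.077 FPKM for *Est-P*, both as noni minus control.

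FPKM is scaled for length, so the levels of the 2 genes can be set beside each other. The FPKM of *Est-6* was 383 times that of *Est-P* on noni and 174 times on control food. Both ratios rest on an *Est-P* value under 1 FPKM, and with 1 FPKM added to each gene they were 70.6 on noni and 41.0 on control food. *Est-P* made up 0.261% of the summed FPKM of the pair on noni and 0.571% on control food. Among all 17273 genes, *Est-6* ranked 2525 on noni and 3707 on control food, above 85.4% and 78.5% of the genes. *Est-P* ranked 12983 on noni and 12964 on control food, above 24.8% and 24.9% of the genes. *Est-6* thus stood higher in the order of genes on noni, while the place of *Est-P* was nearly the same. Levels under 1 FPKM in both diets were common in these females, being listed for 28.7% of the genes. *Est-P* carries the status NOTEST in the table, as do 5963 genes.

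The *Est-6* locus (FBgn0023645) spans 4366819 to 4368497 and the *Est-P* locus (FBgn0023643) spans 4368696 to 4370390 on scaffold 0 of the build dsec_caf1. The loci are 1679 and 1695 bases long, with 198 bases between them, and no other listed locus overlaps either. The table gives a gene's outer ends only, without exons or strand. Both genes are listed with the same pair of *D. melanogaster* orthologs, *Est-P* and *Est-6*. How many reads could map to both copies was not tested.

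The change of *Est-6* was set against all genes. On the scale of log2(FPKM + 1) its change was 0.70 and that of *Est-P* was -0.09, and log2 changes are given on this scale from here on unless stated. Over the 12044 genes with a mean of the diets of at least 1 FPKM, the median log2 change was 0.04, with quartiles of -0.20 and 0.24. *Est-6* lay above 96.6% of these genes, and 409 of them had a larger log2 change. At least 1.5-fold higher on noni, as *Est-6* was, were 592 genes, a background of 4.92%, and 1072 genes (8.90%) were at least 1.5-fold lower. *Est-P* was below the minimum of 1 FPKM and is in neither count.

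How far a ratio of this size stands apart depends on the level of the gene. Of the 3437 other genes with a mean within 2-fold of that of *Est-6*, 1.89% had a log2 ratio of at least that of *Est-6*, taken without added FPKM, and 5.85% had one as large in either direction. These shares include 26 genes listed at 0 in one of the diets. The other 3411 genes had quartiles of -0.12 and 0.23. Around the level of *Est-P* the ratios were much wider. The quartiles of 664 genes were -0.96 and 0.73, and a further 329 genes near this level were listed at 0 in one of the diets. Of all 993, 81.7% had a ratio at least as large in size as that of *Est-P*. The lower value of *Est-P* on noni was therefore well inside what genes of its level showed in the same table, and no direction is drawn from it.

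**Figure D1:**
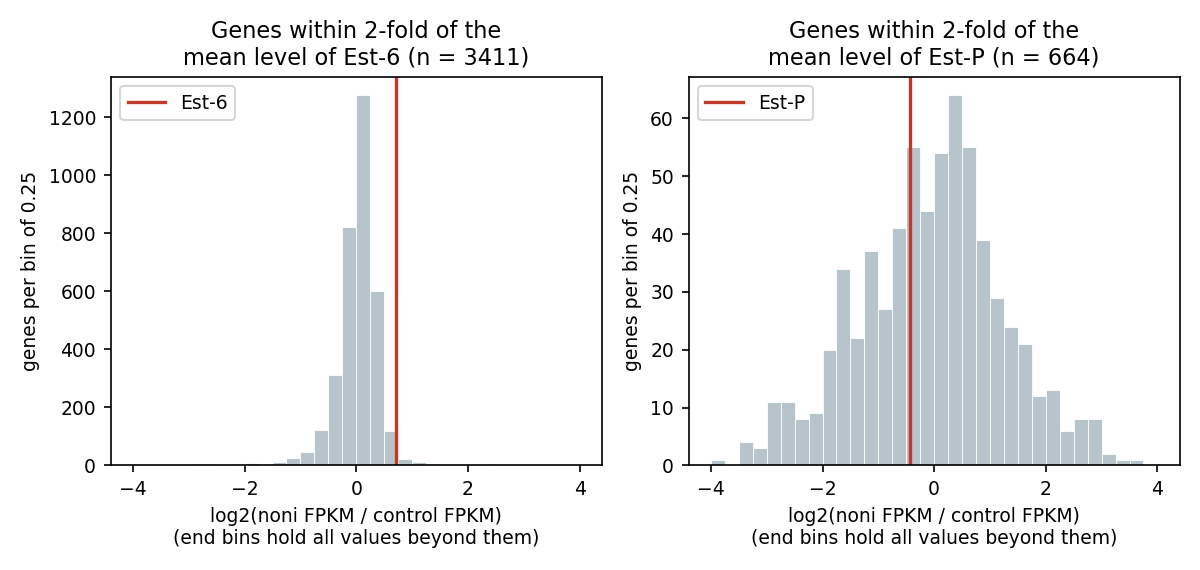
Number of genes (y axis) by log2 ratio of noni to control FPKM (x axis, bins of 0.25) for the genes within 2-fold of the mean level of *Est-6* (left, 3411 genes) and of *Est-P* (right, 664 genes), with the gene itself as a red line. *Est-6* at 0.71 lies in the upper flank of a narrow distribution, and *Est-P* at -0.43 lies near the middle of a wide one.

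Other carboxylesterase genes did not share one direction. Of 32 names of the family, 16 could be matched, *Est-6* and *Est-P* among them, and 14 of these had a mean of at least 1 FPKM. Of the 14, 6 were higher and 8 lower on noni, with a median log2 change of -0.13, against 0.04 over all genes. Without *Est-6*, 5 of 13 were higher and 8 lower, with a median of -0.15. Over all genes 54.8% were higher on noni, and a mix of directions in so few genes is not particular to this family. At least 1.5-fold higher was 1 of these 13, *alpha-Est2*, and at least 1.5-fold lower was 1, *Nrt*, beside the backgrounds of 4.92% and 8.90%. The names of all 14 genes other than the pair come from the supplementary tables, which hold the genes called by the study or its earlier experiments and only a part of the genes not called, so the counts are not those of an unselected family.

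The alpha-esterases are a tandem cluster of carboxylesterase genes that has been tied to resistance against insecticides in flies. Here 9 of 11 names were matched, all on scaffold 6 between 3402200 and 3470926, a stretch of 68.7 kb. Of the 8 with a mean of at least 1 FPKM, 2 were higher and 6 were lower on noni, beside 54.8% higher over all genes. The median log2 change of the 8 was -0.21. *alpha-Est2* (GM10966) was listed at 9.95 FPKM on noni and 5.53 FPKM on control food, a log2 change of 0.75, close to that of *Est-6* but at a lower level. *alpha-Est8* (GM10476) was listed at 29.9 FPKM on noni and 20.7 FPKM on control food. Both of the higher genes stood among cluster members with lower values on noni.

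The more abundant alpha-esterases were listed at lower values on noni, by less than 1.5-fold. *alpha-Est7* (GM10474), which encodes an esterase whose counterpart in blow flies is known for resistance to organophosphates, was at 78.6 FPKM on noni and 94.8 FPKM on control food. *alpha-Est3* (GM10468) was at 75.0 FPKM on noni and 80.9 FPKM on control food. *alpha-Est1* (GM10467) was at 42.0 FPKM on noni and 55.7 FPKM on control food. None of these 3 reached the fold of 1.5, and the log2 change was -0.27, -0.11 and -0.40 in that order. *alpha-Est5* (GM10471), *alpha-Est9* (GM10480) and *alpha-Est10* (GM10481) had log2 changes of -0.35, -0.15 and -0.30. As none of the 6 lower genes reached the fold of 1.5, no direction is drawn for any one of them. *alpha-Est6* (GM10473) was under 1 FPKM, at 0.517 on noni and 0.944 on control food, and with *Est-P* it was one of the 2 named family genes below the minimum.

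Of the family members outside the cluster, CG4757 (GM23920), a predicted carboxylesterase, was at 147 FPKM on noni and 108 FPKM on control food, a log2 change of 0.44. *Glt* (GM17098) encodes glutactin, a basement membrane protein with an esterase-like domain, and was at 50.1 FPKM on noni and 42.9 FPKM on control food. *Nrt* (GM25656) encodes neurotactin, an adhesion protein of the same fold, and was at 13.7 FPKM on noni and 21.9 FPKM on control food, a log2 change of -0.64. The neuroligins *Nlg1* (GM10969) and *Nlg3* (GM10464), synaptic adhesion proteins, were at 1.54 and 1.14 FPKM on noni and at 1.33 and 1.44 FPKM on control food. Both neuroligins carry the status NOTEST and lie near the minimum of 1 FPKM. Of *Glt*, *Nrt*, *Nlg1* and *Nlg3*, only *Nrt* reached the fold of 1.5, and no direction is drawn for the others.

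In the order of levels, *Est-6* was second of the 16 named genes on noni, behind CG4757, and the fifth on control food, where *alpha-Est7*, *alpha-Est3* and *alpha-Est1* were also above it. *Est-6* and *alpha-Est5*, its neighbour in that order on control food (51.3 FPKM), were nearly level there. *Est-P* was the lowest in both diets. *Est-6* made up 13.8% of the summed FPKM of the named family on noni and 8.92% on control food. Without the pair, the summed FPKM was 532 on noni and 534 on control food. These near-equal sums join genes that differed in opposite directions. The 9 matched alpha-esterases summed to 318 FPKM on noni and 358 FPKM on control food, while CG4757 was at 147 and 108 FPKM.

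**Figure D2:**
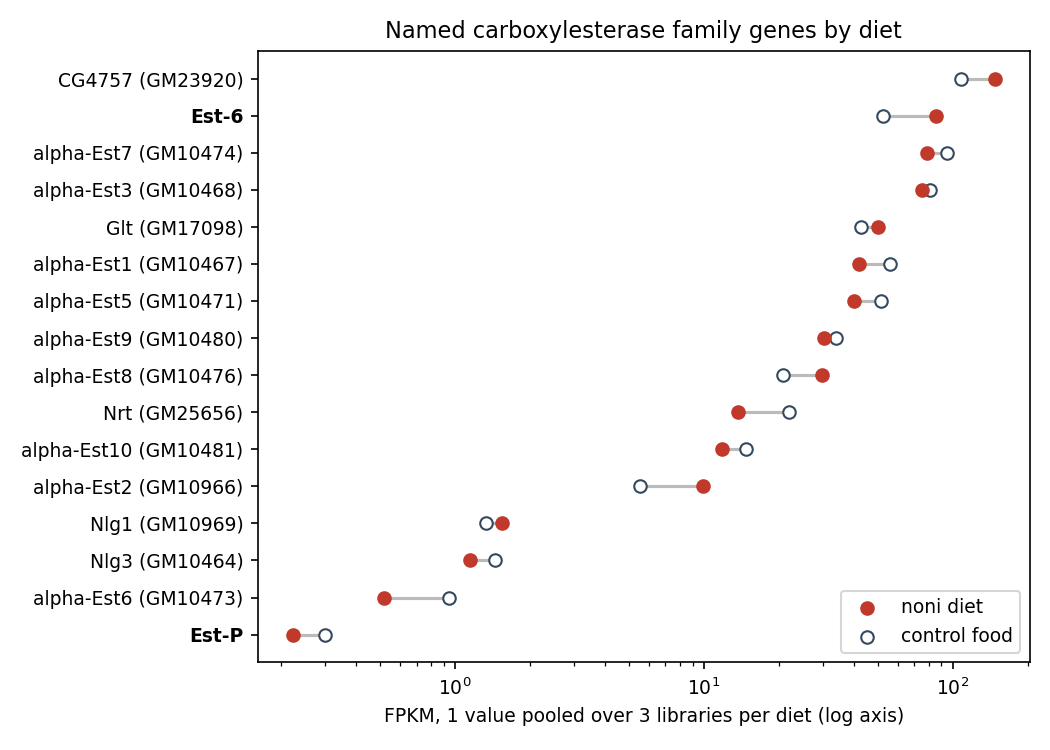
FPKM on a log axis (x) of the 16 named carboxylesterase family genes (y, in order of their level on noni), with 1 pooled value per diet (filled, noni; open, control food). *Est-6* is second on noni at 85.3 FPKM and *Est-P* is last in both diets, while 6 of the alpha-esterases with at least 1 FPKM lie lower on noni.

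The genes around the pair did not share the change of *Est-6* to the same size. The 10 genes on either side cover 152 kb, from 4315315 to 4467803, and 18 of the 20 had a mean of at least 1 FPKM. Of these 18, 11 were higher and 7 lower on noni, with a median log2 change of 0.06, and over all genes 54.8% were higher. At least 1.5-fold higher was 1 of the 18, and at least 1.5-fold lower was 1 of the 18, both near the backgrounds of 4.92% and 8.90%. The higher gene was GM24674, a locus of 189 bases about 20.0 kb before *Est-6*, at 11.3 FPKM on noni and 4.15 FPKM on control food. The lower gene was GM24669, at 18.9 FPKM on noni and 29.8 FPKM on control food. GM24674 is also among the 3 nearest genes before the pair, while GM24669 was singled out after its values were seen.

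The nearest genes were expressed on both sides of *Est-P*. GM25333, the gene before *Est-6* at a distance of 1471 bases, is listed as the ortholog of CG6910, and was at 69.0 FPKM on noni and 48.3 FPKM on control food. GM24673, which begins 77 bases after *Est-P*, was at 45.4 FPKM on noni and 35.7 FPKM on control food. Both had log2 changes above 0, of 0.51 and 0.34, smaller than that of *Est-6*. Before them, GM25332 was at 106 FPKM in either diet, with GM24674 as the next gene. After the pair, GM25336 was at 1.15 FPKM on noni and 1.11 FPKM on control food, and GM24672 at 169 FPKM on noni and 190 FPKM on control food. *Est-P* was the low gene between abundant ones, and the only neighbours below it were 2 genes listed at 0 in both diets.

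**Figure D3:**
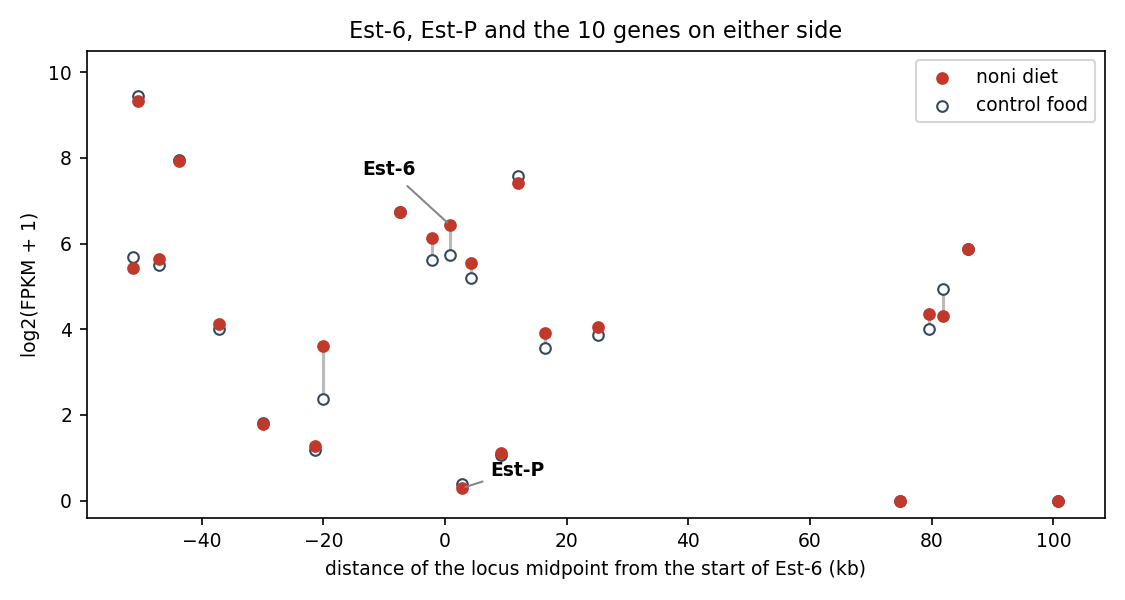
Level as log2(FPKM + 1) (y) of *Est-6*, *Est-P* and the 10 genes on either side, by distance of the locus midpoint from the start of *Est-6* in kb (x), with 1 pooled value per diet (filled, noni; open, control food) joined by a grey line. *Est-P* lies near 0 between *Est-6* and a gene at 45.4 FPKM on noni, and the widest gap between the diets is that of GM24674 to the left.

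A large step in level between close neighbours was also found elsewhere in the genome. Of 3940 pairs of neighbouring genes with a gap of 0 to 500 bases, the median ratio of the higher to the lower mean level, with 1 FPKM added, was 2.40. It was 55.3 for *Est-6* over *Est-P*. Among the other pairs 247 (6.27%) had a ratio at least as large, and in 504 (12.8%) one gene had a mean of at least 10 FPKM and the other of under 1 FPKM, as in this pair.

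**Figure D4:**
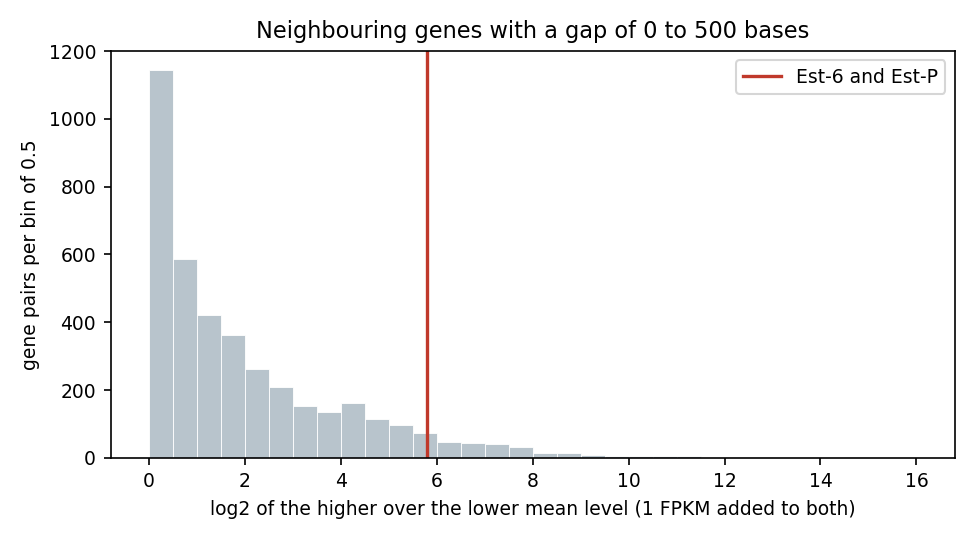
Number of neighbouring gene pairs (y) with a gap of 0 to 500 bases by the log2 of the higher over the lower mean level, with 1 FPKM added (x, bins of 0.5), with the pair of *Est-6* and *Est-P* as a red line. The pair, at a ratio of 55.3, lies in the upper tail, which holds 6.27% of the other pairs.

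The labelled sex of the flies was checked by marker genes. Of 18 male reproductive genes listed, 8 could be matched, and all 8 were listed at 0 FPKM on noni. On control food 7 were at 0 and *Acp36DE*, an accessory gland protein, was at 0.0452 FPKM. Of all 17273 genes, 2949 were at 0 in both diets. The matched names include the sex peptide (*Acp70A*). Of 3 female genes listed, only 2 could be matched, the yolk proteins *Yp1* (GM11404) and *Yp2*, made by females. *Yp1* and *Yp2* were at 23781 and 18179 FPKM on noni and at 13415 and 11056 FPKM on control food. The other 10 male genes of the list could not be matched.

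Genes of yolk and eggshell differed between the diets in the same direction as *Est-6*. The ratio of noni to control was 1.77 for *Yp1* and 1.64 for *Yp2*, beside 1.63 for *Est-6*. All 9 named chorion genes, which build the eggshell, were higher on noni, 8 of them at least 1.5-fold, with log2 changes from 0.33 to 2.94 and a median of 1.75, against 54.8% of all genes higher and 4.92% at least 1.5-fold higher. All 9 names of the list were matched, unlike those of the esterases. They come from the supplementary tables too, so the full match does not make them an unselected set. The list itself was chosen with earlier results of these data known. Their summed FPKM was 21258 on noni and 8837 on control food. The part of this shift in the value of *Est-6* was not tested, and in RNA of whole flies more cells of a type and more RNA per cell cannot be told apart.

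Few other genes of pathways tied to esterases could be matched by name. From a list of 10 juvenile hormone genes only *Jheh1* and *Jheh3* were matched, which encode epoxide hydrolases that break the hormone down. *Jheh1* was at 36.8 FPKM on noni and 44.9 FPKM on control food. *Jheh3* was at 56.0 FPKM on noni and 71.0 FPKM on control food. Neither reached the fold of 1.5. From a list of 6 genes for odorant degradation and pheromone reception, *lush* (*Obp76a*), which binds a pheromone in *D. melanogaster*, was matched, and it was at 12.1 FPKM on noni and 11.6 FPKM on control food.

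Genes whose values were most like those of the pair were found by distance in log2(FPKM + 1) over the 2 diets, so likeness here rests on 2 pooled values only. Nearest to *Est-6* was a 5S rRNA gene copy (5SrRNA:GM26939), at 86.0 FPKM on noni and 50.7 FPKM on control food, a value that is uncertain because such copies share reads. It was followed by *PlexA* (GM13016), a semaphorin receptor, at 82.5 FPKM on noni and 51.9 FPKM on control food. GM18133, *brat* (GM17330), a translational repressor, and CG42516 (GM20720) came next, with distances from 0.065 to 0.083. Nearest to *Est-P* were CG14260 (GM10382), at 0.225 FPKM on noni and 0.310 FPKM on control food, and then GM18572, GM20931, GM15922 and GM20454, with distances of up to 0.021.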

How the data were processed

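Whole-female RNA was sequenced from 3 libraries per diet, grouped by the sample titles. The authors checked reads with FastQC, mapped them to dsec_caf1 with Bowtie2 and ran Cuffdiff with the Ensembl annotation. Versions of these tools are not given in the sources used here. The deposited FPKM values are Cuffdiff's, after geometric, library size and bias correction, and each is the authors' pooled value of a diet. The table holds no fragment counts and the study's mapped read totals were not used here, so no counting limit is given. The deposited fold changes, test statistics, p-values and q-values are the authors' own comparison and were not used. From the FPKM values, log2 ratios of noni to control, with 1 FPKM added unless stated, ranks and counts past 1.5-fold were computed with Python 3.11.15, numpy 2.4.6 and pandas 2.3.3, and plots with matplotlib 3.10.9. Counting was tested on simulated data. Starts in the table count from 0, and positions here count from 1. *D. melanogaster* names came from the deposited table and the ortholog columns of the supplementary tables, for 2484 genes.

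The genes, the lists and the fold were chosen with earlier results of these data known. Named in the text were the pair, the matched esterases, the 3 nearest genes on either side, the 5 nearest profiles of each gene and list extremes, and others are said to be outside this rule. The ranges of genes at a like level were added after seeing the data. Other pseudocounts, filters, folds, gaps and centring were tried. No sequence was used.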

Additional observations from a re-analysis of the deposited data

How the results depend on the processing

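The log2 change of *Est-6* was 0.71 without a pseudocount, 0.61 with 10 FPKM added and 0.66 after centring on the median of all genes, at least 1.5-fold in each. That of *Est-P* depended on the pseudocount, with -0.43 without one, -0.31 with 0.1 FPKM and -0.011 with 10 FPKM added. The same amount added to both values cannot change the sign, so these settings do not bear on its direction. When the minimum mean was 10 FPKM, 321 genes were at least 1.5-fold higher and 619 lower on noni. These counts are over a smaller set of genes whose size is not given here, so no share is given. At 2-fold the counts over the 12044 genes with at least 1 FPKM were 230 higher and 425 lower. Of the 14 named carboxylesterase genes with at least 1 FPKM, 0 were 2-fold higher and 0 were 2-fold lower. Genes past 2-fold were few among all genes, so these counts of 0 do not set the family apart. With gaps of up to 2000 bases, 7.63% of the other pairs had a ratio as large as *Est-6* over *Est-P*. The family by protein similarity was not run, because no protein sequence was used here. No paired analysis was possible because the table holds 1 pooled value per diet, and for the same reason no library could be left out.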
